A study of Drosophila melanogaster with 2 samples.

Results

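Of the 3087 peaks that the pooled peak list of the series held on the main chromosome arms, 173 had their summit just downstream of the start of a single gene. A peak was counted here when its summit lay within 500 bp of annotated starts of exactly 1 protein-coding gene (Ensembl gene models) and 1 to 500 bp downstream of the nearest of those starts, read in the direction of transcription. The rule used positions and gene models, and no measured height. The 173 peaks belonged to 164 genes. They are set against the 711 peaks whose summits lay upstream of a single gene's start by the same rule, the 616 peaks within 500 bp of starts of several genes, and the 1587 peaks with no protein-coding start within 500 bp. The peaks come from chromatin immunoprecipitation with sequencing (ChIP-seq) of Drosophila melanogaster embryos, whole and 0 to 24 h old, that carried a klu-eGFP fusion transgene, with an antibody against GFP according to the sample descriptions, while the antibody field names klu. The series has 1 group of 2 biological replicates, both of that genotype and age, and no comparison between conditions and no control library was analysed here. Whole embryos mix all cell types, so a strong signal in few cells and a weaker one in many cells cannot be told apart, and peak lists hold no marker expression against which the tissue could be checked.

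The klumpfuss gene (klu) encodes a transcription factor with zinc fingers related to those of the vertebrate EGR and WT1 proteins, and it is known for its part in the self-renewal of neural stem cells (neuroblasts) and in sensory organ formation. The stretch just downstream of a transcription start holds the 5' untranslated region (5' UTR), the first splice site and often the beginning of the first intron, and it is where RNA polymerase pauses at many fly genes. Proteins of the EGR family bind GC-rich sites, written here as GTGGGCG or GTGGGTG on either strand and called the Klu/EGR motif.

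The sequences at the summits show what the strongest of these peaks and those with a Klu/EGR motif look like. All are read 5' to 3' on the strand of the gene from the RefSeq sequence of BDGP release 6 (dm6), as 29 bases around the summit where a 5' UTR is touched and 61 bases otherwise. In the first 6, taken from the 7 strongest peaks, the capital marks the summit base, which lay in windows of 20.7 to 51.7% G+C.
PNPase (chr3R:31404641-31404669, minus strand, 85 bp downstream): cgtacagggcttttAttgtaagattttga
ph-p (chrX:2137934-2137962, minus strand, 423 bp downstream): ttaataaatcaactCaatacgtatgtcta
CG4497 (chr2L:7194533-7194561, minus strand, 41 bp downstream): tatactactaaattGtctttgaataatac
CG9399 (chr3R:9574152-9574180, minus strand, 45 bp downstream): ctgttgcggtgctaAaattatttttataa
CG31612 (chr2L:21794928-21794988, minus strand, 489 bp downstream): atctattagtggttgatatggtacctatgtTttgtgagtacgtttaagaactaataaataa
Smg5 (chr2L:13904560-13904588, minus strand, 87 bp downstream): ctgctatttagcagCcattgttccagccc
In the next 4, the capitals mark the Klu/EGR motif, which for CG3529 stands on the other strand and so reads as its complement. These windows held 59.0 to 69.0% G+C.
CG3529 (chr3L:9447061-9447121, plus strand, 227 bp downstream): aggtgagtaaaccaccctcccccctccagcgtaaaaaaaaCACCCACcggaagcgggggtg
CG8671 (chr2L:21262961-21262989, plus strand, 19 bp downstream): gcggtcacactggttcggacGTGGGTGgc
Tomosyn (chrX:12631809-12631837, plus strand, 218 bp downstream): aacagGTGGGCGgggcttaacggtttgcg
Lnk (chr3R:25889020-25889048, plus strand, 492 bp downstream): gccgctgtGTGGGTGtgtgtgtctgccct
Of the 6 strong windows, 5 held more A and T than G and C. The 4 chosen for the motif were rich in G and C, to which the motif itself adds in so short a window. In the 101 bases around the summit they had 54.5% (CG3529), 45.5% (CG8671), 55.4% (Tomosyn) and 58.4% G+C (Lnk). Pdk, rank 6 by signal and not printed here, had 55.4% G+C in the 101 bases around its summit. In the Lnk window the motif runs into a TG repeat.

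The lists behind these counts differed in length. The pooled list had 3126 rows, the shorter conservative list of the series 2413, and the thresholded lists of replicate 1 and replicate 2 had 1553 and 2585. The signal is the height the authors deposited per peak, on a scale that no source used here gives, so it is used to rank peaks within a list and to set groups of peaks of 1 list side by side. Where the values of both replicates are compared for the same peak, they are the deposited numbers of separate lists, so a ratio between replicates describes those lists and measures no difference in binding. The files give no read counts. The replicate values below are those of the overlapping peak in that replicate's ranked list of candidate peaks, which covered 162 of the 173 peaks in replicate 1 and 172 in replicate 2.

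Klu-eGFP summits near single-gene starts lay mostly on the upstream side. Of the 884 such summits, 173 were downstream (19.6%, 95% Wilson interval 17.1 to 22.3%) and 711 upstream. The share was 15.1% in the list of replicate 1 (69 downstream and 387 upstream summits), 17.2% in that of replicate 2 (134 and 644) and 17.0% in the conservative list (118 and 576). The downstream zone made up 7.31 Mb of the main arms and held 23.7 peaks per Mb, against 118 per Mb in the 6.03 Mb of the upstream zone, 310 per Mb within 500 bp of several genes, and 13.4 per Mb away from all protein-coding starts. All main arms together held 23.1 per Mb, so the density just downstream of starts was close to that of the genome as a whole and lay above that of sequence away from starts. Every large arm had some, with 38 on X, 31 on 2L, 32 on 2R, 34 on 3L and 38 on 3R. None of the 173 was on 4, which allows a share of up to 2.17% there (95% Wilson interval, counting error only). Without the shares of all pooled peaks per arm beside them, these counts set no arm apart.

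**Figure D1:**
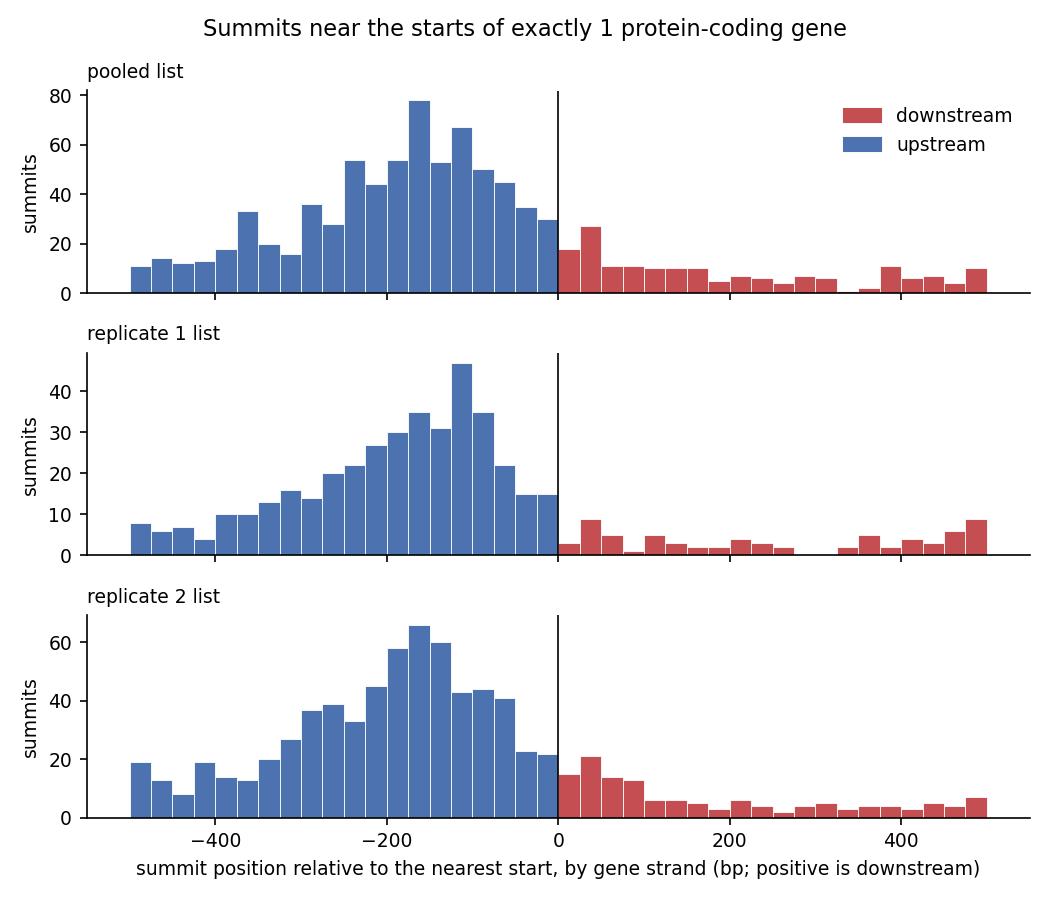
Number of summits (vertical axis) in bins of 25 bp by position relative to the nearest start in the direction of transcription (horizontal axis, bp), for summits near the starts of exactly 1 protein-coding gene in the pooled list and in the list of each replicate. The 173 downstream summits of the pooled list (red) crowd near the start and then run on at a low level to 500 bp, whereas the 711 upstream summits (blue) form a broad hump with a median of 175 bp.

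The downstream summits did not mirror the upstream ones in their distance from the start. They lay at a median of 143 bp (interquartile range 47.0 to 317 bp, lowest 1 and highest 493 bp), and the upstream summits at a median of 175 bp (108 to 270 bp). Of the downstream summits 46 (26.6%, interval 20.6 to 33.6%) lay 1 to 50 bp from the start, against 65 of the upstream ones (9.14%, 7.24 to 11.5%). The middle distance of 51 to 250 bp held 70 downstream summits (40.5%) and 445 upstream ones (62.6%), and 251 to 500 bp held 57 (32.9%) and 201 (28.3%). The intervals of the shares did not overlap for the nearest and the middle distance, and they did overlap for the farthest. The list of replicate 1 had fewer summits close to the start, with a median distance of 234 bp, than the list of replicate 2, with 120 bp.

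The edge of the rule cuts through a continuous range. The summits nearest the start were those of CG5721, 1 bp downstream with a pooled signal of 90.1, and of CG8036, 3 bp downstream with a signal of 2.18. The CG8036 peak overlapped a stronger pooled peak. In replicates 1 and 2 the CG5721 summit lay at -116 and 3 bp, where negative values are upstream. The candidate peaks that overlapped the CG8036 peak had summits at -264 and -222 bp and signals of 71.3 and 143. They can belong to the stronger neighbour, since the next pooled summit lay 224 bp from that of CG8036. The summits of CG15247 (signal 112) and Mtp (signal 81.7), which encodes the microsomal triglyceride transfer protein, lay at 493 bp and were the last inside. In replicates 1 and 2 the CG15247 summit lay at 517 and 573 bp, outside the rule, and that of Mtp at 438 and 439 bp. Just outside, at 504 bp, lay the summits of pAbp, the poly(A)-binding protein gene (signal 153), and of tapas (signal 81.2).

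Most of the downstream summits lay in the 5' UTR. By the gene models 113 of 173 lay in a 5' UTR (65.3%, interval 58.0 to 72%), 50 in an intron (28.9%, 22.7 to 36.1%) and 10 in a coding exon (5.78%, 3.17 to 10.3%), and 116 (67.1%) lay inside the first exon of a transcript that begins at the nearest start. Where transcripts of the gene differed, 5' UTR was taken before coding exon, and coding exon before intron. The 5' UTR share is thus an upper limit and the intron share a lower one. The rule places every summit just downstream of a start, where 5' UTRs lie. Shares of these features at the same distances of all starts were not computed. The shares therefore describe the positions and cannot show a preference of the peaks. The feature followed the distance: 5' UTRs held 45 of the 46 summits within 50 bp, 55 of the 70 at 51 to 250 bp and 13 of the 57 at 251 to 500 bp, whereas introns held 0, 13 and 37 of them. Median distances were 85.0 bp for the 5' UTR summits, 300 bp for those in coding exons and 368 bp for those in introns. The 10 summits in coding exons lay in CG1628, CG44812, mtDNA-helicase, CG1092, RabX5, CG7377, CAP, CG11370, Lcp1 and CG3339. These genes are named as a complete small group, after their values were seen. Their median signal was 66.3, against 105 for the intron summits and 87.7 for the 5' UTR summits.

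The nearest start was the outermost annotated start of its gene for 115 of the 173 peaks (66.5%), and an inner alternative start for the others. For 15 peaks (8.67%) the summit also lay over another protein-coding gene, Trl and Itpr among them, and for 7 (4.05%) a start of a non-coding gene lay within 500 bp. The genes with a downstream peak had a median length of 5430 bp, those with an upstream peak 5987 bp and all protein-coding genes 2166 bp. A single annotated start was given for 34.8% of the genes with a downstream peak, for 43.7% of those with an upstream peak and for 73.5% of all. Genes with 4 or more starts made up 17.7% of the downstream set, 17.0% of the upstream set and 3.16% of all. A gene with several starts offers more sequence in which a summit can fall, and the part of the number of starts in these shares was not tested.

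The peaks downstream of starts were lower than those upstream. Their median signal in the pooled list was 91.4 (interquartile range 69.3 to 134, lowest 2.18, highest 958), against 123 upstream of single starts, 134 near several genes, 96.0 away from starts and 106 over all pooled peaks. On the log2 scale the medians were 6.51 downstream and 6.94 upstream, a difference of -0.43. The same direction held in both ranked lists, with medians of 41.1 downstream and 51.3 upstream in replicate 1 (-0.32) and of 57.6 and 77.4 in replicate 2 (-0.43), though these lists share the peaks chosen from the pooled list. In each replicate's own thresholded list the differences were -0.18 for replicate 1 and -0.35 for replicate 2. When all pooled peaks were divided by signal into 5 groups of equal size, downstream summits made up 37.5% of the single-gene summits in the weakest group (60 of 160, interval 30.4 to 45.2%), then 20.9, 17.3 and 18.4%, and 8.22% in the strongest group (18 of 219, 5.26 to 12.6%). No test over conditions was possible, and peaks of 1 list are not replicates.

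The strongest downstream peak lay at the start of PNPase, which encodes a mitochondrial enzyme that degrades RNA. The pooled signal of that peak was 958, with 449 for replicate 1 and 519 for replicate 2. The summit (3R:31404655, peak 31404502 to 31404821) lay in the 5' UTR 85 bp from the start, and 68 and 70 bp from it in replicates 1 and 2. Next came a peak in the 5' UTR of ph-p, a Polycomb group gene whose product is a subunit of Polycomb repressive complex 1, with a signal of 552 in the pooled list, with 208 for replicate 1 and 376 for replicate 2. That summit lay 423 bp from the outermost start (X:2137948).

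The peaks ranked 3 to 10 had pooled signals of 446 to 273. CG4497 had a signal of 446 in the pooled list, with 181 for replicate 1 and 271 for replicate 2, and CG9399 had 400, 175 and 216 in the same order. CG31612 (388, 142 and 248) had its summit in an intron, 489 bp from its only annotated start. Pdk, which encodes pyruvate dehydrogenase kinase, an inhibitor of the entry of pyruvate into the citric acid cycle, had 374 in the pooled list, with 166 for replicate 1 and 222 for replicate 2. Smg5, a gene of nonsense-mediated mRNA decay, had 315, 146 and 185 in the same order. CrebB, the fly CREB transcription factor gene, had 314, 127 and 163, and its summit held a Klu/EGR motif 20 bp away. CG18622 (297, 136 and 165) and scramb2, a phospholipid scramblase gene (273, 109 and 150), completed this group. In all 10 of the strongest peaks the signal was higher in replicate 2 than in replicate 1.

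Several genes of transcription and signalling stood among ranks 11 to 25. Trl, which encodes the GAGA factor, a DNA-binding protein of promoters, had 218 in the pooled list, with 99.6 for replicate 1 and 123 for replicate 2, with the summit 142 bp downstream in all 3 lists. The gene of the fly Fos protein, kay, had 189, 92.5 and 90.4 and a Klu/EGR motif 33 bp from its summit. The zinc finger gene zf30C (185, 63.5 and 88.5) and the forkhead gene CHES-1-like (184, 48.5 and 125) followed, and Eip75B, an ecdysone-induced nuclear receptor gene, had 167, 39.7 and 124. CHES-1-like and Eip75B had the highest ratios of replicate 2 to replicate 1 within the 25. Genes of membrane and cell-surface proteins included egh, a glycosphingolipid mannosyltransferase gene (243, 121 and 129), the ion channel gene Trpm (202, 83.1 and 112), dlg1, which encodes the junctional scaffold Discs large (178, 84.7 and 98.2), and the receptor tyrosine phosphatase gene Ptp4E (167, 83.2 and 83.4). The remaining ones, not sorted by function here, were Cftr, CG1628, Fbl6, rudhira, hng3 and CG44812, with pooled signals of 163 to 252. Of the 25, Cftr (149 in replicate 1 and 106 in replicate 2) and kay were those with the higher signal in replicate 1.

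**Figure D2:**
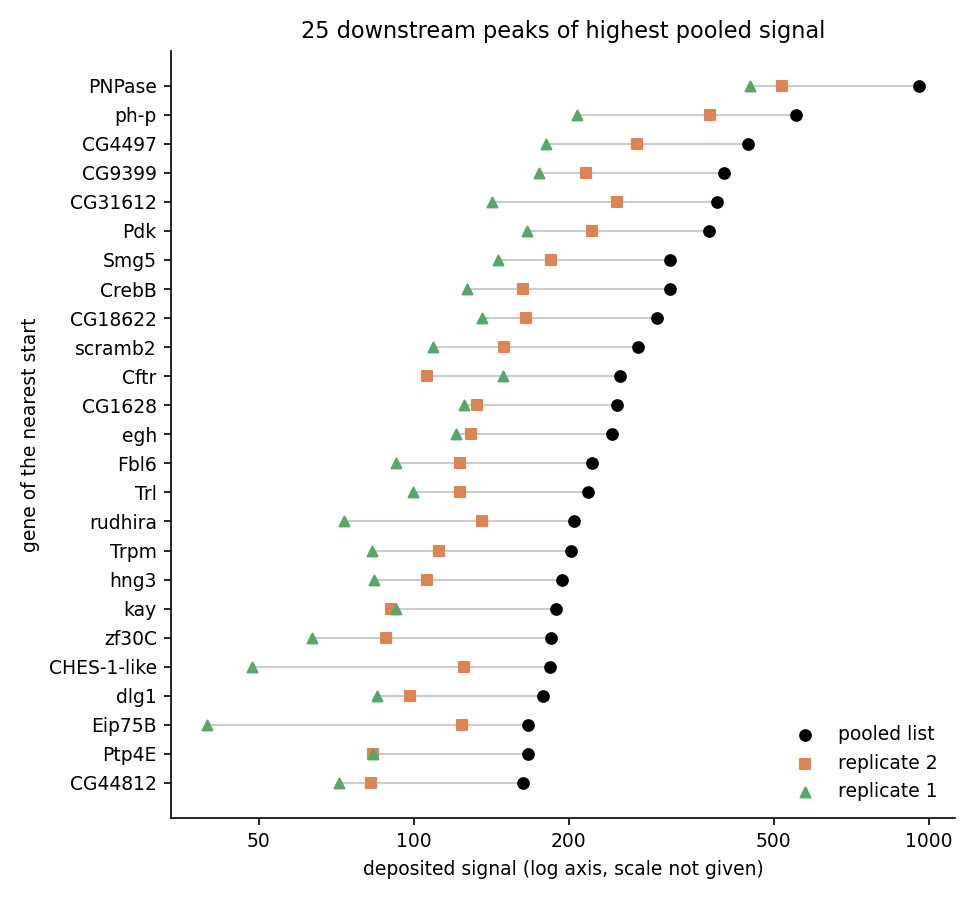
Deposited signal (horizontal log axis, no unit given) of the 25 downstream peaks of highest pooled signal, by gene, in the pooled list (black circles), replicate 2 (orange squares) and replicate 1 (green triangles); grey lines join the lowest replicate value to the pooled one. PNPase stands apart at 958, the others lie between 163 and 552, and Eip75B and CHES-1-like show the highest ratios of replicate 2 to replicate 1.

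All of these 25 overlapped a peak in the thresholded lists of both replicates, and of the other 148 peaks 36 did (24.3%, interval 18.1 to 31.8%). Over all 173, 61 were in both replicates' lists (35.3%, 28.5 to 42.6%), against a background of 41.3% of all pooled peaks, 48.0% of the upstream ones, 49.4% of those near several genes and 35.8% of those away from starts. The interval of the downstream share held the background and lay below the upstream share. Another 47 (27.2%) were found for replicate 2 alone, 11 (6.36%) for replicate 1 alone and 54 (31.2%, 24.8 to 38.5%) in neither. Of the upstream peaks 14.9% were in neither list, and 21.2% of all pooled peaks. The median signal was 150 in the peaks found in both lists, 93.1 in those of replicate 2 alone and 69.4 in those in neither. Taken from the replicates' own lists, 58 of the 69 downstream peaks of replicate 1 overlapped a peak of replicate 2 (84.1%), close to the 341 of 387 upstream ones (88.1%). Of the 134 downstream peaks of replicate 2, 65 overlapped a peak of replicate 1 (48.5%), against 349 of 644 upstream (54.2%).

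Where both replicates had a candidate peak, they mostly put its summit on the same side of the start. Both put it downstream, as in the pooled list, in 131 of 161 peaks (81.4%, interval 74.6 to 86.6%). In 8 (4.97%) both put it at or upstream of the start, unlike the pooled list. The replicates thus shared a side in 139 (86.3%). Among the 8, the peaks of spn-B, cindr, CG31855, CG42327 and CG8036 overlapped a stronger pooled peak (named after their values were seen). There the replicate summit can be that of the neighbour. By distance from the start, both replicates had the summit downstream in 21 of 42 peaks at 1 to 50 bp, in 58 of 67 at 51 to 250 bp and in 52 of 52 at 251 to 500 bp. The summits of the replicates were a median of 32.0 bp apart (28.0 bp for upstream peaks), so the side is least certain for the summits nearest the start. The signal in replicate 2 was higher in 126 of 161 peaks, with a median ratio of replicate 2 to replicate 1 of 1.34, and of 1.49 in upstream peaks. Across peaks, which share both libraries, Spearman's rho between the replicates was 0.52 (n = 161) downstream and 0.68 (n = 686) upstream, and 0.60 (n = 143) and 0.71 (n = 644) without peaks that overlap a stronger one.

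**Figure D3:**
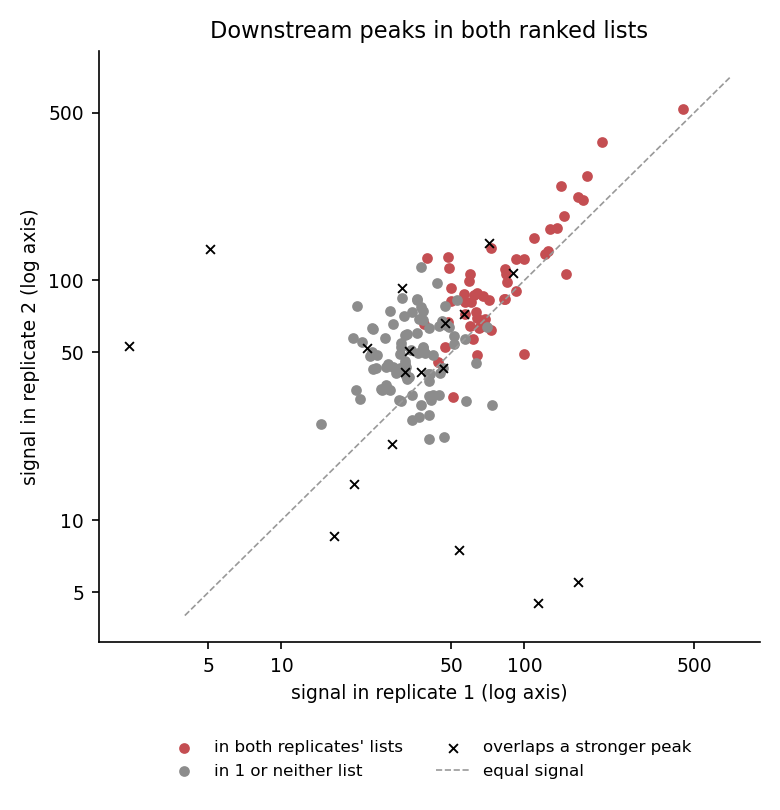
Signal of the downstream peaks in the ranked lists of replicate 1 (horizontal log axis) and replicate 2 (vertical log axis), 1 point per peak, for the 161 peaks with a value in both. Peaks in both thresholded lists (red) lie at the upper right and the others (grey) below them, most points lie above the line of equal signal, and the crosses far from the line are peaks that overlap a stronger pooled peak.

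Some of the downstream peaks were shoulders of a stronger neighbour. Of the 173, 21 overlapped a stronger pooled peak (12.1%, interval 8.08 to 17.8%), against 6.19% of the upstream peaks and 7.16% of all. Their summits lay a median of 203 bp from the next pooled summit (199 to 307 bp). They included all 19 downstream peaks with a signal under 30, while the lowest signal among the 152 others was 35.9. The low values of Jra, the fly Jun gene (7.68, named after its values were seen), and of the second peaks of Pdk (6.27) and drn (6.06) are of this kind. For such a peak the replicate value can belong to the stronger neighbour, as at the second Pdk peak, which had 166 in replicate 1, the value of the first peak, and 5.53 in replicate 2. Without the 21, the share of downstream summits was 18.6% and the median signal 98.8.

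For 9 genes there were 2 downstream peaks, namely egh, ph-p, Eip75B, CG10936, Mtp, CG4615, Pdk, drn and CG43245, and no gene had more. In 4 of them the peaks stood at separate alternative starts. The peaks of egh lay 335 bp (signal 243) and 319 bp (93.0) from their starts, those of ph-p 423 bp (552) and 30 bp (92.6), those of Eip75B 38 bp (167) and 97 bp (87.7), and those of drn 55 bp (152) and 103 bp (6.06). The other 5 genes had both peaks at 1 start, and in each the weaker peak overlapped the stronger one. Pdk had signals of 374 at 30 bp and 6.27 at 236 bp, and CG4615 had 139 at 484 bp and 7.75 at 177 bp. Of the 164 genes, 30 (18.3%) also had an upstream single-gene peak. Another pooled summit lay within 1 kb of 53 of the downstream peaks (30.6%, interval 24.2 to 37.9%), of 21.0% of the upstream peaks and of 23.1% of all.

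The downstream summits were richer in G and C than other Klu-eGFP summits. Within 50 bp of the summit they averaged 45.0 ± 11.4% G+C (SD over 173 peaks), against 35.6% upstream of single starts, 32.0% near several genes, 36.8% away from starts and 36.0% over all pooled peaks. Windows with 50% G+C or more made up 35.3% of the downstream summits (61 of 173) and 13.4% of the upstream ones, and windows under 30% made up 11.6% and 36.7%. The difference from upstream summits was also seen in each list, with 41.0 and 34.9% downstream and upstream in replicate 1, 42.5 and 33.4% in replicate 2, and 42.7 and 35.3% in the conservative list. Sequence around starts differs in the same direction. At the same distances from all single-gene starts the average was 45.1% downstream and 39.5% upstream. The downstream mean matched that of its surroundings as an average over distances, with 45.3% at the summits and 43.6% at the same distances within 50 bp, 46.7 and 44.8% at 51 to 250 bp, and 42.7 and 46.8% at 251 to 500 bp. The farthest downstream summits, like the upstream ones as a whole, were thus poorer in G and C than sequence at the same distances. Within 50 bp of the start both sides were alike, at 45.3% downstream and 45.2% upstream. The upstream average was 34.6% at 51 to 250 bp and 34.6% at 251 to 500 bp.

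Composition went with signal and with reproducibility. The 25 strongest downstream peaks averaged 38.4% G+C and the other 148 averaged 46.2%. The 61 peaks in both replicates' lists averaged 40.1% and the 54 in neither 50.2%. Spearman's rho between G+C and signal across peaks, which share the same libraries and neighbouring sequence, was -0.42 downstream (n = 173) and -0.36 upstream (n = 711). Among summits with 50% G+C or more, 21.3% of the downstream peaks (13 of 61) and 35.8% of the upstream ones (34 of 95) were in both lists, with median signals of 72.5 and 88.8. Among the others the shares were 42.9% and 49.8%, and the medians were 104 and 130. The downstream peaks were thus lower in signal than the upstream ones in both classes of composition, while the intervals of the shares overlapped in both (12.9 to 33.1% and 26.9 to 45.8%, then 34.1 to 52.1% and 45.9 to 53.8%). The part of composition in the counts was not tested beyond this split, which was chosen after the values were seen.

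**Figure D4:**
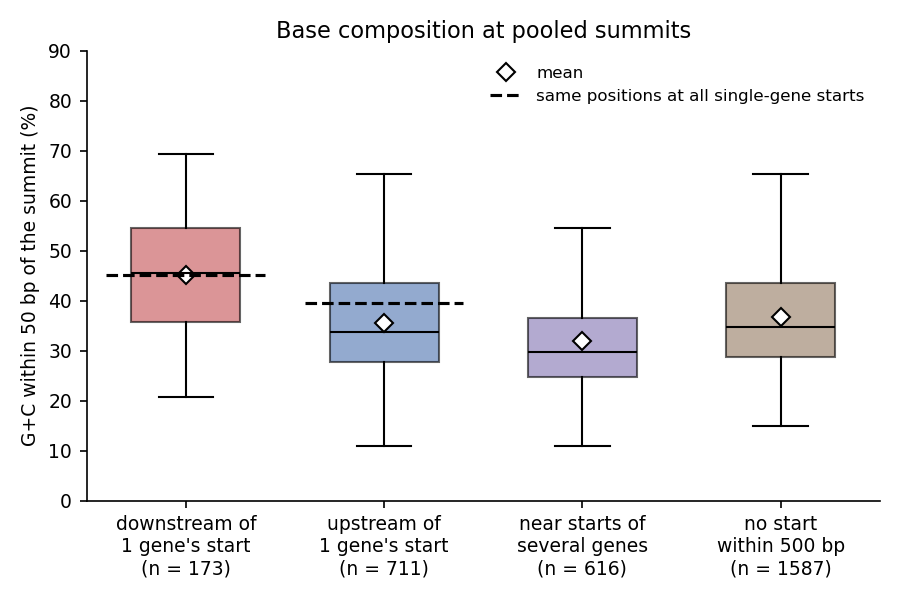
G+C content within 50 bp of the summit (vertical axis, %) of pooled peaks by position of the summit; boxes show the median and quartiles, whiskers reach the farthest value within 1.5 box lengths, diamonds are means, and dashed lines are the mean at the same distances of all single-gene starts. The downstream mean of 45.0% sits on its dashed line at 45.1%, whereas the upstream mean of 35.6% lies below its line at 39.5%.

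The Klu/EGR motif was found more often under the downstream summits than under the others. It lay within 50 bp of 19 of the 173 summits (11.0%, interval 7.14 to 16.5%), against a background of 4.50% of all pooled summits, 4.08% of the upstream ones (2.85 to 5.80%), 3.08% of those near several genes and 4.54% of those away from starts. At the same distances from all single-gene starts, 3.10% of the windows downstream and 2.85% of those upstream held it. The longer form GCGTGGGCG or GCGTGGGTG, which holds the shorter one, lay at 6 downstream summits (3.47%), against 0.703% of the upstream ones and 0.221% of windows at the same distances. In the conservative list 1 of 118 downstream summits held it (0.847%), in the list of replicate 1 it was 1 of 69 (1.45%), and in that of replicate 2 it was 5 of 134 (3.73%). The 6 pooled ones were CG17896, Pfrx, Polr1D, CG11370, hwt and CG4615, named after their values were seen. The peaks of hwt (signal 29.0) and CG4615 (7.75) overlapped a stronger pooled peak. Without such peaks the longer form lay at 4 of 152 downstream summits (2.63%). In the replicates' own lists, 5 of 69 downstream summits of replicate 1 held the motif (7.25%) against 3.10% upstream, and 16 of 134 of replicate 2 (11.9%) against 3.26% upstream. The intervals overlapped in replicate 1 (3.13 to 15.9% and 1.78 to 5.34%) and not in replicate 2 (7.48 to 18.5% and 2.14 to 4.93%). Among pooled peaks in both replicates' lists, the shares were 8.20% downstream (5 of 61, 3.55 to 17.8%) and 4.69% upstream (2.91 to 7.49%), which also overlapped. Among those in the list of replicate 2 alone they were 19.1% (9 of 47, 10.4 to 32.5%) and 3.04% (1.48 to 6.15%).

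The motif share went with composition as well. Among summits with 50% G+C or more, 15 of 61 downstream held the motif (24.6%, interval 15.5 to 36.7%), against 15 of 95 upstream (15.8%, 9.81 to 24.4%) and 18.9% of all such pooled summits, so that the intervals overlapped. Windows of that composition anywhere in the downstream zone held it in 6.20%, and in the upstream zone in 7.45%. Below 50% G+C the shares were 3.57% downstream (4 of 112) and 2.27% upstream, with 2.00% and 1.84% anywhere in the zones. The excess over the surrounding sequence was seen chiefly in G+C-rich windows, on both sides of the start. By distance, the downstream share was 6.52% within 50 bp (3 of 46), 12.9% at 51 to 250 bp and 12.3% beyond, and the upstream shares were 9.23, 3.37 and 3.98%. Within 50 bp of the start the counts were too small to tell whether the sides differed.

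The 19 peaks with the motif were not the strongest ones. Their median signal was 87.5, against 91.9 for the 154 without it, and 2 of them, CrebB and kay, were among the 25 strongest. They averaged 55.9% G+C, against 43.7% for those without. Of the 19, 5 were in both replicates' lists (26.3%) and 5 in neither, against 36.4% and 31.8% of the 154. The nearest match lay a median of 20 bp from the summit, and within 25 bp of it at 12 of the 19. The closest were those of Lnk, an adaptor of insulin signalling (3 bp, signal 87.5), of CG4615 (4 bp, signal 7.75, overlapping a stronger peak), CG5721 (5 bp, signal 90.1) and Tomosyn, an inhibitor of vesicle fusion (6 bp, signal 141).

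**Figure D5:**
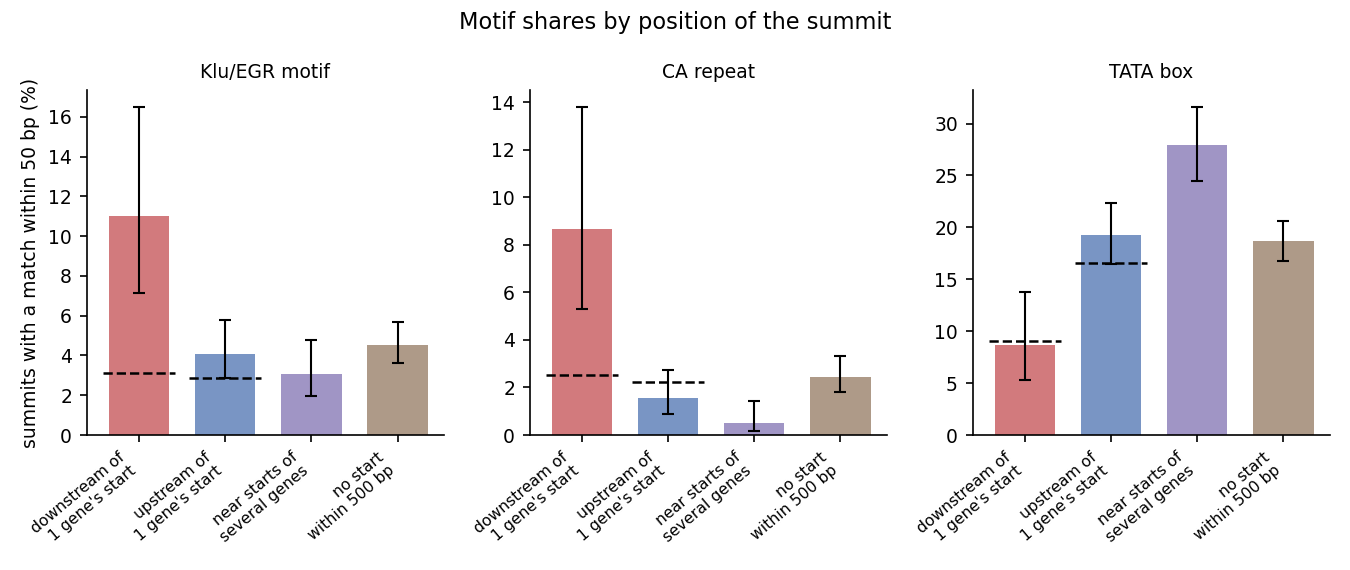
Share of pooled summits (vertical axes, %) with the Klu/EGR motif, the CA repeat and the TATA box within 50 bp, by position of the summit; bars are shares, error bars 95% Wilson intervals and dashed lines the share at the same distances of all single-gene starts. Downstream summits have the highest share of the Klu/EGR motif (11.0%) and of the CA repeat (8.67%) of the 4 classes, and the lowest of the TATA box (8.67%).

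A run of CA dinucleotides was also frequent. The 8 letters CACACACA, on either strand, lay within 50 bp of 15 downstream summits (8.67%, interval 5.32 to 13.8%), against a background of 2.20% of all pooled summits and 1.55% of the upstream ones (0.866 to 2.75%), with 2.51% and 2.22% at the same distances of all single-gene starts. None of the 15 was in both replicates' lists, and 8 were in neither. The list of replicate 1 held 1 such summit among its 69 downstream ones (1.45%) and that of replicate 2 held 11 of 134 (8.21%). The median signal of the 15 was 81.5, between 62.1 and 117. The gene with the highest was hep, which encodes the kinase that activates JNK (117 in the pooled list, with 38.4 for replicate 1 and 74.4 for replicate 2). At 4 peaks, those of CG5721, Lnk, dbo and Itpr, the repeat and the Klu/EGR motif occurred together. These and hep are named after their values were seen.

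Core promoter elements varied in how often they lay at the downstream summits. The TATA box letters TATAAA lay within 50 bp of 15 summits (8.67%), against 19.3% of the upstream ones, with 9.02% and 16.6% at the same distances of all single-gene starts. The initiator letters TCAGTC or TCAGTT lay at 6.94% of the downstream and 9.14% of the upstream summits, against 13.0% and 10.6% at the same distances. The TCT letters, such as CCTTTCC or TCTTTTT, lay at 24 downstream summits (13.9%, interval 9.50 to 19.8%, with 14.4% at the same distances). The DPE letters AGACGTG lay at 1 (0.578%, with 0.568%) and the pause button letters CGGACGC at 2 (1.16%, with 0.951%). The DNA replication-related element TATCGATA lay at 3 downstream summits (1.73%, interval 0.591 to 4.97%, with 0.520% at the same distances), the letters CAACACTA (Motif 7) at 2 (1.16%, 0.318 to 4.12%, with 0.277%) and the letters TGTGACC (Motif 1) at 3 (1.73%, with 1.54%). The GAGA letters GAGAGAG lay at 5 downstream summits (2.89%, 1.24 to 6.59%, with 1.24% at the same distances), and the letters CAGCTG at 12 (6.94%, with 5.35%). The letters CAGGTAG, bound by Zelda, the activator of the early embryonic genome, lay at 0 of 173, which allows a share of up to 2.17%, with 0.609% at the same distances. A match of letters is a description of the window and no measure of binding.

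The genes with a downstream peak came from many functions. Over all 13945 protein-coding genes, 164 had a downstream peak at a single-gene start (1.18%), and 1939 (13.9%) had any pooled summit within 500 bp of a start. Of 18 gene lists, 8 had a member among the 164 and 10 had none. With 0 to 3 genes per list, these counts are given as a description and set no list apart. Of 27 neuroblast identity and division genes 3 had a downstream peak, and 6 had a summit within 500 bp of a start on any side. In each replicate's own list 1 of the 27 had a downstream peak, and in the conservative list 3 had. The 3 of the pooled list were dlg1, brat and numb. Of these, brat and numb encode proteins that are passed to 1 daughter of a dividing neuroblast and limit its self-renewal. The summit of brat lay 280 bp downstream with a signal of 116 in the pooled list and 80.5 in replicate 2, with no overlapping candidate peak in replicate 1. The summit of numb lay 84 bp downstream with 83.1 in the pooled list, with 41.9 for replicate 1 and 33.4 for replicate 2, and was in neither thresholded list. The gene klu had no downstream peak. Of 29 Notch pathway genes 2 had one, and 7 had a summit within 500 bp of a start on any side. The 2 were numb and mib1, the gene of a ubiquitin ligase for Notch ligands. The mib1 peak had 79.2 in the pooled list, with 21.4 for replicate 1 and 55.2 for replicate 2.

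Among chromatin genes, the downstream peaks of ph-p and Trl were in the 25 strongest. Of 34 Polycomb and trithorax group genes 3 had a downstream peak (8.82%, against 1.18% of all protein-coding genes). A summit within 500 bp of a start on any side was found for 11 of the 34 (32.4%, against 13.9% of all). The 3 were ph-p, Trl and Brd7-9, a subunit gene of a chromatin remodelling complex. Brd7-9 had 102 in the pooled list, with 38.2 for replicate 1 and 68.2 for replicate 2. Of 19 insulator and promoter-binding factors 2 had one (10.5%), Trl and pita, an insulator protein gene (82.4, 30.9 and 52.7 in the same order), and 9 of the 19 had a summit within 500 bp of a start on any side. Of 40 cell cycle genes Dp, which encodes the partner of the E2F factors, was the one with a downstream peak (139, 49.9 and 81.7). A summit within 500 bp of a start on any side was found for 10 of the 40.

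Of all genes with a pooled summit within 500 bp of a start, 8.46% had a downstream single-gene one (164 of 1939). This is the share to read the counts of every gene list against, those above and those that follow. Of 86 cytoplasmic ribosomal protein genes 38 had a pooled summit within 500 bp and 3 had a downstream single-gene one, RpL26 (143 in the pooled list, with 37.5 for replicate 1 and 114 for replicate 2), RpL12 (87.7, 29.6 and 41.0) and RpLP2 (16.8, 16.5 and 8.57, overlapping a stronger peak). Of 73 mitochondrial ribosomal protein genes 23 had a summit within 500 bp and 0 a downstream one. Translation factors had 12 and 2 of 54. The 2 were eIF4E1, the cap-binding protein gene (69.1, 23.9 and 42.8), and eEF2, the elongation factor gene (65.0 in the pooled list and 27.5 in replicate 2). Neither peak was in a thresholded list of a replicate. The eIF4E1 summit lay upstream in replicates 1 and 2, at -28 and -1 bp, and the eEF2 summit upstream in replicate 2, at -69 bp. The conservative list and each replicate's own list held 0 translation factors with a downstream peak. Aminoacyl-tRNA synthetases had 6 of 32 within 500 bp, respiratory chain genes 12 of 89, Mediator and general transcription genes 12 of 45 and proteasome genes 5 of 48, each with 0 downstream. Of 86 cuticle and chorion genes, which most embryonic cells do not express, 2 had a summit within 500 bp, and Lcp1 had a downstream one (56.8, 20.2 and 35.0, in neither thresholded list). Proneural and sensory organ genes (17), homeobox genes (49), axon guidance genes (35), EGFR pathway genes (27) and cell death genes (15) had none downstream, and 0, 3, 1, 7 and 3 genes of these lists had a summit within 500 bp of a start on any side.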

How the data were processed

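ChIP-seq peaks of 2 biological replicates of whole klu-eGFP embryos were analysed as 1 group, with groups and replicate numbers from the labels. The labels give dm6 as the assembly. A ranked and a thresholded peak list per replicate was used, and for the series the pooled and the conservative thresholded list. The authors deposited a signal per peak (column 7), whose scale is not given, and a score (column 5) that is at least 830 in the pooled list. File types in the deposited text files name irreproducible discovery rate ranking. The aligner, the caller and any settings are unknown (not given in the sources used here). There are no read counts, so depth is unknown.

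Peaks on the 6 main arms were used, and 39 pooled peaks elsewhere were left out. Starts, UTRs and genes came from Ensembl release 115 (BDGP 6.54). Summits were classed by distance and strand, with starts of all transcripts of protein-coding genes counted; the classing was tested on simulated summits. A pooled peak was in a replicate's list when it overlapped a peak there by at least 1 bp. G+C content and 15 motifs were read within 50 bp of the summit on both strands, also around every base 1 to 500 bp from a single gene's start, weighted by the distances of the peaks. Shares have 95% Wilson intervals, which cover counting error over peaks only, and no test between groups was possible or made. The named genes are those of the 25 peaks of highest pooled signal, up to 4 members of each of 18 gene lists, the peaks at both edges of the distance rule, and the genes with 2 peaks. An older symbol served to find 11 list members. The members, gene lists and motifs were chosen with earlier results of these data known. The alternatives were other peak lists, distances, start sets, overlap rules and windows. Python 3.11.15 with numpy 2.4.6, pandas 2.3.3, scipy 1.17.1 and matplotlib 3.10.9 was used.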

Additional observations from a re-analysis of the deposited data

How the results depend on the processing

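Of 94 values recomputed under another choice for the main results, 58 moved by less than their interval or 1.5 times and 36 moved further. Only the log2 difference in signal could change sign, and it stayed negative. The other values are counts, shares, distances and signals, which cannot be negative. The peaks above the median signal gave 70 downstream peaks of 70 genes, a share of 14.3%, a median signal of 142, 70.0% in both lists, 2.86% in coding exons and 40.3% G+C. The conservative list gave a share of 17.0%, a median signal of 115, 50% in both lists and 42.7% G+C. Leaving out 1 replicate at a time (the other replicate's own list) gave 69 to 134 peaks of 68 to 123 genes, shares of 15.1 to 17.2%, median distances of 120 to 234 bp, 24.6 to 47.8% within 100 bp (38.7% in the pooled list), median signals of 64.1 to 65.3 on the scale of those lists, log2 differences of -0.35 to -0.18, 53.6 to 70.1% in 5' UTRs, 25.4 to 42.0% in introns and 41.0 to 42.5% G+C. A distance of 1 kb gave 272 peaks, a share of 26.3%, a median of 433 bp and 22.1% within 100 bp, and one of 250 bp gave 61.9% within 100 bp. Counting the outermost starts alone gave a share of 24.2%, and without summits within 50 bp of the start the median distance was 227 bp. Without weaker overlapping peaks the median signal was 98.8. The ranked lists of the replicates held 93.1% of the peaks in common. Windows of 25 and 100 bp gave the Klu/EGR motif at 5.78% and 17.3%. Any summit within 500 bp gave 1939 genes. For other motifs 28 of 98 and for gene lists 36 of 108 values moved further than their interval or 1.5 times. These are shares and counts, which have no sign to change. The cause of these moves was not tested, except that shorter lists, windows and distances hold fewer peaks and motifs by construction. A replicate's own list gives no value for presence in both lists. No paired analysis was possible because there is 1 group. Depth could not be weighed, since the lists hold no read counts.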
